A study of Bos taurus with 30 samples.

Results

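A set of 60 genes of 27607 had far more counts in pooled blood from the coccygeal vein (in the tail) than in pooled blood from the jugular vein (in the neck), both processed at 1 h. They were selected on these very counts. Fragment counts were summed over the 5 coccygeal libraries and over the 5 jugular libraries of 1 h, and genes were kept with a coccygeal sum of at least 20 and a log2 ratio of the library-scaled sums, each with 1 count added, above 2.5. Of the 15814 genes that reached the minimum sum, 60 passed, among them ENSBTAG00000013103 and ENSBTAG00000021466, and the mirrored rule in favour of the jugular vein gave 0 genes. The name of the set as an excess of coccygeal blood was not borne out by the libraries. Most of the excess lay in the coccygeal blood of 1 heifer, and 1 library of jugular blood was nearly as high.

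The study sequenced RNA of peripheral white blood cells (PWBCs), the nucleated cells of the buffy coat, from 5 estrus-synchronized crossbred Angus x Simmental beef heifers about 14 months of age, named subjects A to E. Each heifer gave blood once from the coccygeal vein (1 h) and in several tubes from the jugular vein, all held in EDTA at 4 °C for 1, 3, 6, 8 or 24 h until the cells were isolated. The groups compared here are coccygeal 1 h, jugular 1 h and jugular 24 h, with 5 libraries each, and jugular 3 to 8 h, whose 15 libraries are pooled because their columns could not be joined to a single storage time or heifer. The latter libraries are numbered 1 to 15 in the order of their columns, from which neither heifer nor time was inferred. No heifer was treated otherwise, and 1 tube of blood stands behind each library, so that the spread within a group joins that between heifers and that between tubes.

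White blood cells comprise neutrophils, lymphocytes, monocytes, eosinophils and basophils, and both veins carry the same classes of circulating cell. Blood transcript abundance is a mixture of these cells, and in bulk RNA fewer cells of a type and less RNA per cell cannot be told apart. The values are counts, or counts scaled to library size (CPM). Total counts ranged from 12412619 to 19492274 over the 30 libraries, so that 3 counts, the upper limit that a count of 0 allows, correspond to 0.154 to 0.242 CPM. Such limits and intervals cover counting error only. Between 13014 and 13491 genes had at least 1 CPM in a library, and no group stood apart in depth or in the number of genes.

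None of the 60 genes is paired with a symbol in the tables used here, so that their functions are not described and the genes beyond the first pair are given by their rank from 1 to 60 in pooled coccygeal count. The pooled coccygeal count of the set was 28340, against 784 in the jugular libraries of 1 h. It was uneven: 5 genes had 1258 counts or more, 21 had 112 to 573 and 34 had 99 or fewer. The 3 leading genes alone held 63.1% of the counts.

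ENSBTAG00000013103 (rank 1) had 253 counts in the coccygeal library of subject A, 6029 in B, 35 in C, 23 in D and 180 in E. In jugular blood of the same hour it had 0, 0, 23, 1 and 17 counts in subjects A to E. In jugular blood of 3 to 8 h it ranged from 0 to 5287 counts (median 2.26 CPM), with 100 or more counts in 4 of 15 libraries. At 24 h it had 0, 0, 1, 0 and 5 counts. Every heifer thus had more in the coccygeal than in the jugular library of 1 h, yet the highest jugular libraries of 3 to 8 h exceeded all coccygeal libraries except that of subject B. As means, its level was 72.5 CPM ± 146 (SD, n = 5) in coccygeal blood, 0.586 CPM ± 0.777 (SD, n = 5) in jugular blood at 1 h, 26.4 CPM ± 81.9 (SD, n = 15) at 3 to 8 h and 0.0919 CPM ± 0.172 (SD, n = 5) at 24 h. The SD exceeded the mean in each group.

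ENSBTAG00000021466 (rank 2) had 337, 5849, 38, 20 and 198 counts in the coccygeal libraries of subjects A to E, and 0, 1, 4, 1 and 28 in their jugular libraries of 1 h. Subject D's coccygeal library, the lowest of the vein, lay below the jugular library of subject E, so that the groups overlapped. At 3 to 8 h it ranged from 0 to 5397 counts (median 0.136 CPM), with 100 or more counts in 5 libraries and 0 in 3. At 24 h it had 0, 0, 1, 2 and 7 counts. Its level in library 3 of the 3 to 8 h group, 327.5 CPM, was the highest of all 30, next to 323.9 CPM in subject B's coccygeal blood.

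**Figure D1:**
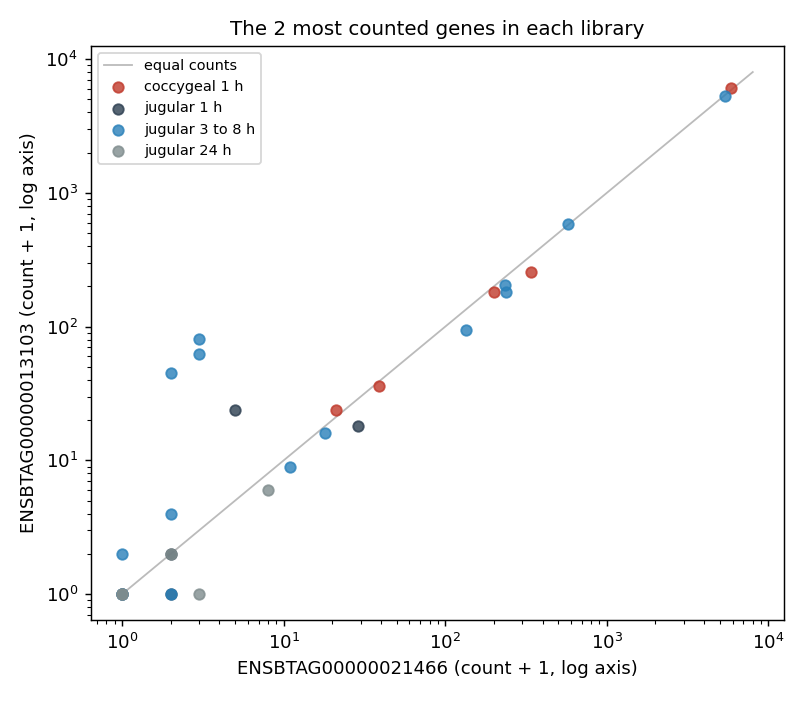
Counts of ENSBTAG00000021466 (x axis, count + 1, log scale) and ENSBTAG00000013103 (y axis, count + 1, log scale) in each of the 30 libraries, coloured by group, with a line of equal counts. A coccygeal and a jugular 3 to 8 h library lie together at the top right, with 5287 or more counts of each gene, and 4 jugular libraries lie well above the line.

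Both genes varied together across libraries, with an exception seen after the values were known. Of the 16 libraries with 20 or more counts of both genes summed, 12 had between 0.607 and 1.15 counts of ENSBTAG00000013103 for each count of ENSBTAG00000021466. The other 4, all of jugular blood (1 h of subject C and libraries 7, 8 and 9 of 3 to 8 h), had 5.75 to 44 times as many. In those 4 libraries ENSBTAG00000013103 had 23, 80, 61 and 44 counts and ENSBTAG00000021466 had 4, 2, 2 and 1. The gene of rank 3 went with the former, with 14, 59, 51 and 30 counts there. Across all 30 libraries the level of ENSBTAG00000013103, as log2(CPM + 1), was most like that of the gene of rank 3 (Pearson's r = 0.998) among the 17193 genes with 50 or more counts in all. Next were ENSBTAG00000021466 (r = 0.957) and the genes of rank 5 (r = 0.940), 6 (r = 0.927) and 10 (r = 0.908). For ENSBTAG00000021466 the most alike were the genes of rank 3 (r = 0.962), 1 (r = 0.957), 6 (r = 0.928), 13 (r = 0.924) and 10 (r = 0.918). All of these are genes of the set, and the libraries of 1 subject are not independent points. Without the pair of libraries with the highest levels, r between ENSBTAG00000013103 and ENSBTAG00000021466 was 0.896 and that between ENSBTAG00000013103 and the gene of rank 3 was 0.995.

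The next genes by count shared the peak in subject B's coccygeal library but differed in their level elsewhere. The gene of rank 3 had 242, 4500, 24, 21 and 145 coccygeal counts in subjects A to E and no more than 15 in any jugular library of 1 h. That of rank 4 had 188, 2862, 34, 64 and 70 coccygeal counts, but it was also counted in every jugular library, with 44 to 84 counts at 1 h, 38 to 545 at 3 to 8 h and 32 to 84 at 24 h. Of its coccygeal counts, that of subject B alone lay outside the range of all jugular libraries. Rank 5 had 76, 1102, 8, 15 and 57 coccygeal counts against 5 to 14 in jugular blood at 1 h. That of rank 6 had 49, 497, 1, 3 and 23 against 1 to 3.

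Rank 7 had a steady level like that of rank 4, with 25, 272, 13, 17 and 21 coccygeal counts against 8 to 19 in jugular blood at 1 h. The gene of rank 8 had 37, 272, 0, 4 and 8 coccygeal counts and 0 in all 10 jugular libraries of 1 h and 24 h, while library 3 of the 3 to 8 h group held 91. Against the 3 counts over the group that a count of 0 allows, its pooled coccygeal level was at least 105-fold higher than that of jugular blood at 1 h. Those of rank 9 and 10 had 253 and 200 counts in subject B and no more than 20 in any other coccygeal library. The genes of rank 11 and 12 had 178 and 188 counts in subject B and at most 22 in the other coccygeal libraries. In each of these genes, subject B's coccygeal blood was the highest of the 5 and subject A's the second highest.

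Over the whole set, 9 genes had 0 counts in all jugular libraries of 1 h, and 6 of them also at 24 h, but each of the 60 had a count in at least 1 of the 25 jugular libraries. The log2 ratio that defined the set had a median of 4.10 and ran from 2.51 to 8.30. Just inside the limit were genes with log2 ratios of 2.51, 2.56 and 2.58, and just outside were PI16 (peptidase inhibitor 16) with 2.45 and a pair of unnamed genes with 2.43 and 2.39. PI16 had 882 coccygeal counts, 702 of them in 1 library, against 157 jugular counts at 1 h.

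**Figure D2:**
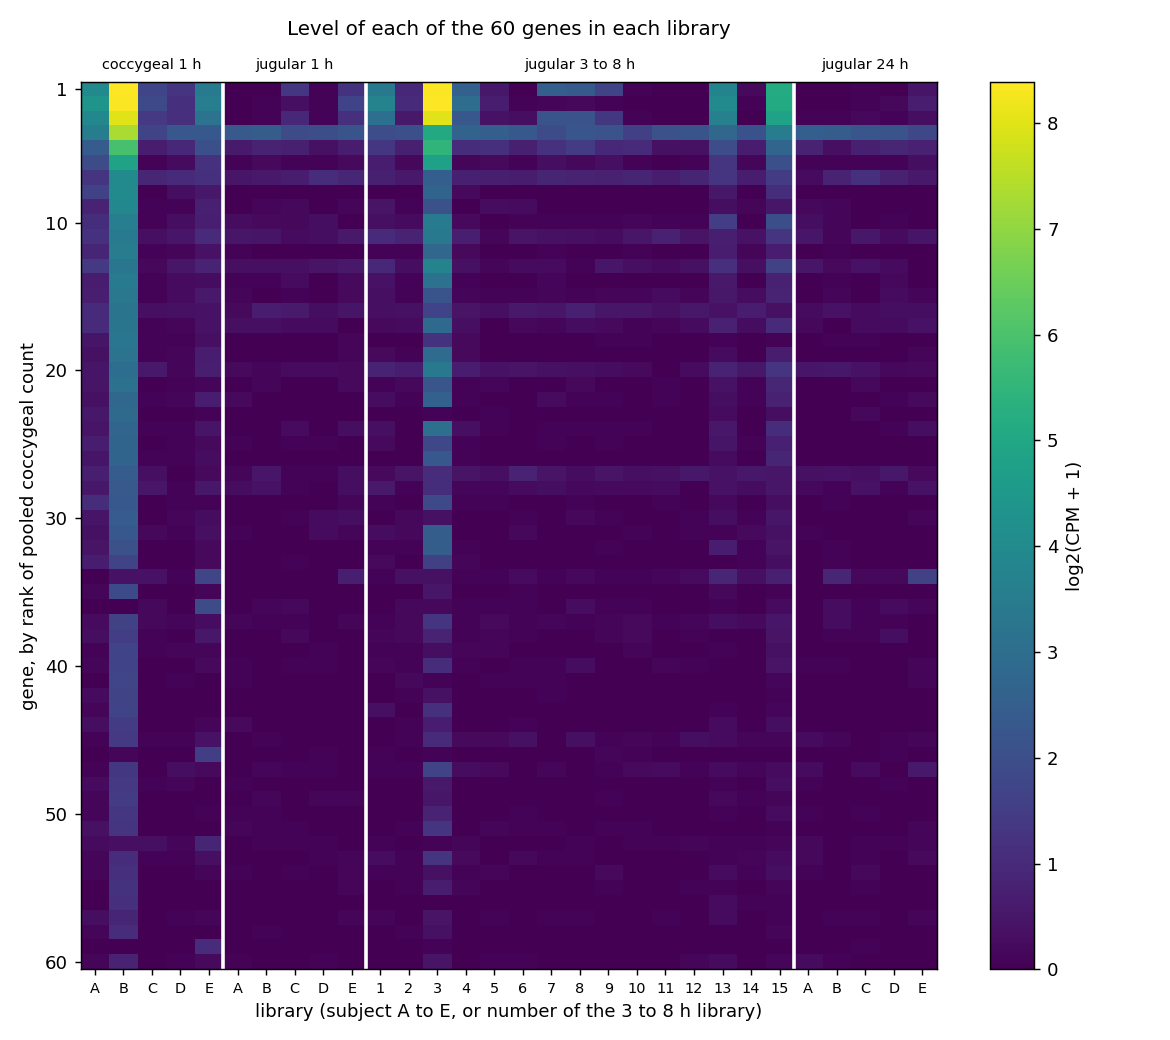
Level of each of the 60 genes (rows, by rank of pooled coccygeal count) in each of the 30 libraries (columns, by group, with subject letters or library numbers), as log2(CPM + 1) in colour. The columns of coccygeal subject B and jugular 3 to 8 h library 3 stand out over most rows, and 5 rows are brightest in coccygeal subject E instead.

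The coccygeal excess was mostly that of 1 heifer. For 55 of the 60 genes the largest coccygeal count was in subject B, whose library held 68.2% to 100% (median 86.8%) of their coccygeal counts. The other 5 genes had 51.7% to 100% of theirs in subject E, and none peaked in subject A, C or D. Within subject B, 58 genes were higher in coccygeal than in jugular blood of 1 h. The numbers were 53 in subject A, 46 in E and 35 in D, whereas in subject C 24 genes were higher, 17 lower and 19 at 0 counts in both libraries. In all 5 subjects 17 genes were higher, and 6 had no overlap between coccygeal and jugular libraries of 1 h. Of all genes that reached the minimum count, 2.04% were higher in every subject and 0.101% had no overlap. These counts restate the contrast that selected the genes and were given no test. Among the 6, the gene of rank 3 had 21 counts in its lowest coccygeal library and 15 in its highest jugular library of 1 h, and the other 5 had 1 or 2 counts in their lowest coccygeal library. In 5 of the 6, between 3 and 12 of the 15 libraries of 3 to 8 h exceeded the lowest coccygeal library.

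The set made up 0.140% of all counts in subject B's coccygeal library (95% Wilson interval 0.138 to 0.142), or 1400 CPM summed. In the other coccygeal libraries the sum was 89.1 CPM in A, 59.8 in E, 14.42 in C and 14.02 in D. In jugular blood of 1 h it ran from 7.08 to 14.5 CPM, with the highest value in subject E. Only 3 of the 5 coccygeal libraries were thus above every jugular library of 1 h. The sums of subjects C and D lay just below that of subject E's jugular blood.

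**Figure D3:**
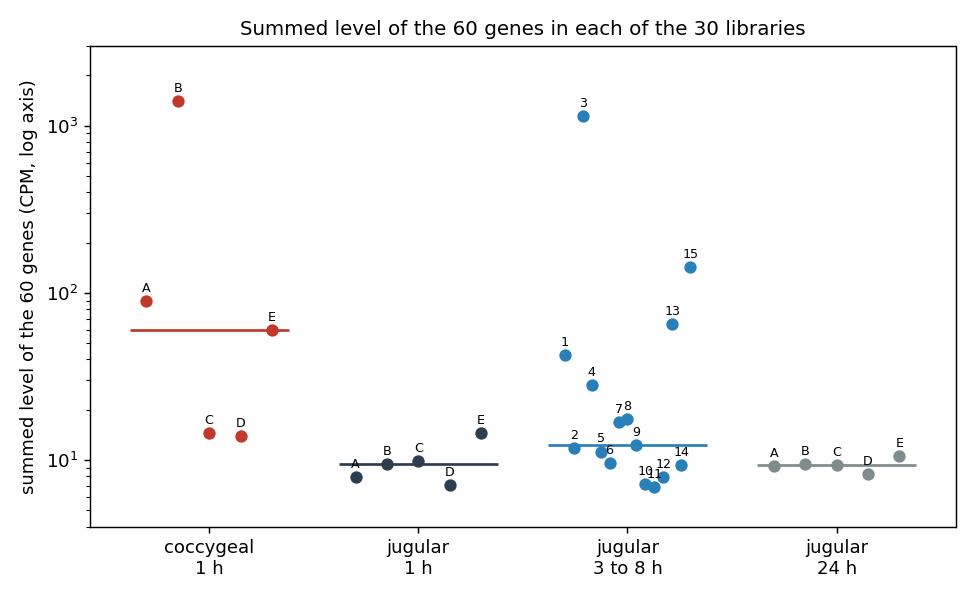
Summed level of the 60 genes (y axis, CPM, log scale) in each library by group (x axis), each point labelled with its subject or library number and each bar the median of the group. Coccygeal subject B (1400 CPM) and jugular 3 to 8 h library 3 (1150 CPM) lie far above the rest, and the jugular libraries of 24 h lie between 8.20 and 10.6 CPM.

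When the genes were chosen anew without 1 heifer, by the same rule, most were higher in the coccygeal blood of some of the heifers left out and not of others. Without subject A, 64 genes were chosen and 55 of them (85.9%) were higher in A's coccygeal than in A's jugular blood, against 50.4% of all genes that reached the minimum count. Without subject B only 12 genes were chosen, all of the set, and 10 of them (83.3%) were higher in B, against 48.3%. For A, 3 genes were lower and 6 at 0 counts in both libraries, and for B 1 and 1. For subject E it was 42 of 62 genes (67.7%) against 55.3%, with 13 lower and 7 at 0 counts in both. For D it was 34 of 62 (54.8%) against 52.1%, with 12 lower and 16 at 0 counts in both. Genes at 0 counts in both libraries count as not higher in these shares, and they lower those of subjects D and C most. Such genes were not counted among all genes, so that the shares are not fully comparable. For subject C it was 25 of 68 genes (36.8%) against 39.9% of all, with 24 lower and 19 at 0 counts in both libraries. The lists share most of their genes, since each that included subject B was chosen largely on that heifer.

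The other 4 heifers were also looked at without subject B. There, the pooled log2 ratio was above 0 for 56 of the 60 genes, above 1 for 47 and above 2.5 for 19, with a median of 1.73. Only 24 genes still had 20 or more coccygeal counts there. The counts of these heifers were part of the sums that chose the genes, so that a ratio above 0 is in part built in.

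The jugular libraries of 3 to 8 h had no part in choosing the genes, and the set stood out in some of them. Library 3 had a sum of 1150 CPM (0.115% of its counts, 95% Wilson interval 0.113 to 0.117), library 15 had 142 CPM and library 13 had 65.3 CPM. Library 1 followed with 42.6 CPM and library 4 with 28.2 CPM. The lowest was at 6.91 CPM and the median at 12.4 CPM. The median lay inside the range of jugular blood at 1 h, 7.08 to 14.5 CPM. In all, 7 of the 15 libraries were above every jugular library of 1 h, and 3 were above the coccygeal median. Low counts in the jugular libraries of 1 h helped to select the genes, so that a sum above theirs is in part built in. Storage of the blood for longer than 1 h cannot be told apart from the tube drawn, since each library is 1 tube and its storage time was not joined to it.

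Library 3 was the highest of the 15 for 51 of the 60 genes, against 10.7% of the 15814 genes that reached the minimum coccygeal count. For 36 of the 60, library 3 was the highest and library 15 the second highest, against 0.765% of those genes. Library 3 was first for 50 of the 55 genes that peaked in subject B and for 1 of the 5 that peaked in subject E. Across the 15 libraries the median Pearson's r between pairs of genes of the set was 0.870 on log2(CPM + 1), and 0.547 without library 3. These pairs share libraries and many low counts, and the values are descriptions.

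Both high libraries held most genes of the set. Of the 60 genes, 50 had library 3 as their highest or second highest of all 30 libraries, and 10 of them were highest there, ENSBTAG00000021466 and the gene of rank 3 included. The CPM of 36 genes differed by at most 1 log2 unit (with 0.2 CPM added) between subject B's coccygeal library and library 3, with a median 0.83 log2 units higher in subject B. Pearson's r over the 60 genes of log2(count + 1) was 0.869 between these libraries, and it was 0.907 between the coccygeal libraries of subjects A and B and 0.443 between those of E and B. The other 24 genes differed by more than 1 log2 unit, all of them higher in subject B, and the 3 leading genes held 64.8% of the set's counts in subject B and 78.5% in library 3. At rank 23 the gene had 117 counts in subject B and 1 in library 3, and that of rank 4 had 2862 and 545. In 3 genes the difference was above 3 log2 units.

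**Figure D4:**
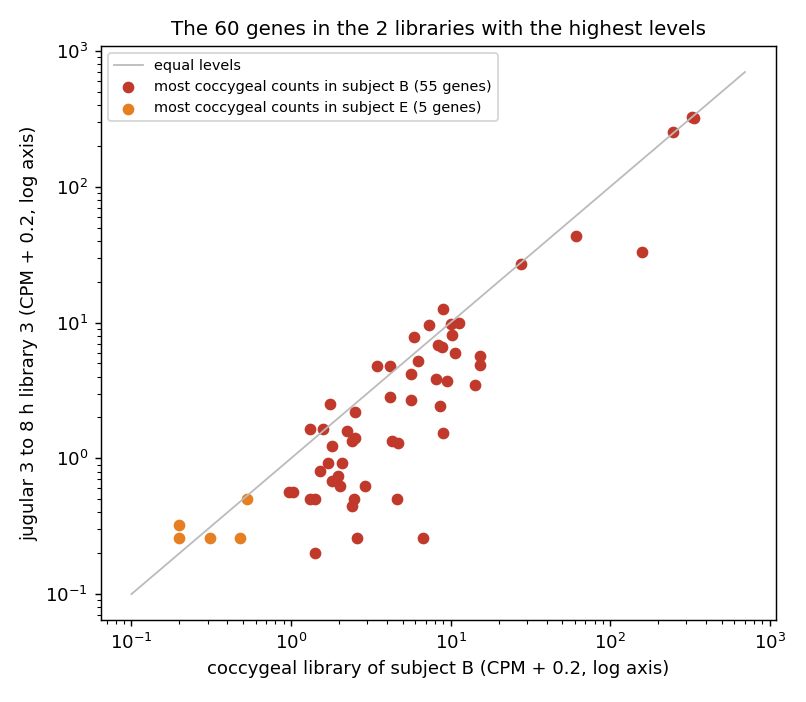
Level of the 60 genes in subject B's coccygeal library (x axis, CPM + 0.2, log scale) and in jugular 3 to 8 h library 3 (y axis, same scale), with a line of equal levels and the 5 genes that peaked in subject E in orange. The leading genes lie on the line, at 249 to 334 CPM in both libraries, and most others lie on or below it.

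The 5 genes that peaked in subject E, of rank 34, 36, 46, 52 and 59, had 42, 50, 35, 15 and 20 counts there and no more than 6 in the other coccygeal libraries. They were near 0 in library 3, with 1 to 5 counts, so that they did not share the peaks of the other 55. That of rank 34 also had 8 counts in the jugular library of subject E at 1 h and 26 at 24 h, and it had 16 counts in subject B at 24 h. The other 4 had at most 4 counts in any jugular library.

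At 24 h the set was low in all 5 heifers. Its sum ran from 8.20 to 10.6 CPM, inside the range of jugular blood at 1 h, and 11 genes had 0 counts in all 5 libraries. The pooled level at 24 h was above that of 1 h for 31 of the 60 genes, with a median log2 ratio of 0.08, and at 3 to 8 h it was above that of 1 h for 59, with a median of 1.74, or 0.91 without library 3. The same medians over the 17193 genes with 50 or more counts were 0.02 and 0.01. Both comparisons share the jugular libraries of 1 h, whose low counts helped to select the genes, and they were given no test.

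Jugular blood of 24 h was tested against that of 3 to 8 h, a comparison that the choice of genes had not used. Of the 60 genes, 10 passed the filter of more than 1 CPM in 5 or more of the 30 libraries and 50 did not, and a gene could pass through the libraries in which it was high alone, the coccygeal ones included. Of the 10, 0 were called, where a call needed an FDR (the p-value adjusted after Benjamini and Hochberg) below 0.05 by edgeR's quasi-likelihood test and by DESeq2, and a log2 fold change beyond 0.5 in size. Over all 14018 genes tested 0.257% were called, and 0.107% were called and lower at 24 h. No direction is read from the 10, since the filter used the libraries that selected them.

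For ENSBTAG00000013103 the fitted log2 fold change at 24 h was -8.28 (SE 2.69, edgeR FDR = 0.1999), and for ENSBTAG00000021466 it was -7.60 (SE 2.71, edgeR FDR = 0.262). Without library 3 they were -5.97 (edgeR FDR = 0.156) and -5.18 (edgeR FDR = 0.284). DESeq2 replaced the count of library 3 as an outlier in 9 of the 10 genes, among them both of these. With it so replaced, DESeq2 alone gave -5.82 (adjusted p = 0.0247) for ENSBTAG00000013103 and -5.0 (adjusted p = 0.0971) for ENSBTAG00000021466. DESeq2 alone called 2 of the 10 genes, ENSBTAG00000013103 and that of rank 3, against 0.449% of all genes tested. With library 3 left out of the fit, DESeq2 alone gave -5.9 (adjusted p = 0.0226) for ENSBTAG00000013103 and -5.09 (adjusted p = 0.0815) for ENSBTAG00000021466. It called the same 2 of the 10 genes, against 74 of all 14018. In an exact two-sided permutation test of log2(CPM + 1) over the 20 libraries, the mean of ENSBTAG00000013103 at 24 h minus that at 3 to 8 h was -1.99 (p = 0.0705, n = 5 and 15) and that of ENSBTAG00000021466 was -1.58 (p = 0.197, n = 5 and 15). The p of this permutation test was thus not below 0.05 for either gene. The 15 libraries of 3 to 8 h came from the same 5 heifers as the 5 of 24 h. The fits and the permutation test took all libraries as independent. Their SE and p-values therefore do not measure the spread between heifers. Within the 3 to 8 h group each of these genes had 0 counts in 3 libraries. Without a filter, when all 60 genes could be tested, edgeR called 0 of them and 0.155% of all 23813 genes. The fitted log2 fold change was below 0 for 56 of the 60 genes and above 0 for 4, against 50.5% below 0 over all genes, and its median was -2.31. An unadjusted edgeR p under 0.05 was found for 15 of the 60, against 7.5% of all. DESeq2 alone called 2 of the 60 and 76 of all 23813 genes. It gave 46 of the 60 no adjusted p, so that these could not be called. The genes of the set share the high libraries and are not independent of one another. Library 3 was the highest of the 15 for 51 of the 60 genes, and the fit without a filter was not repeated without it. No direction is therefore read from the 56 genes.

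Of the 142 marker genes of 16 cell types listed for the check of the tissue, 16 could be matched to a gene. Of the markers matched, CD79A of B cells had at least 438.6 CPM in every library. CD4 of T cells had at least 111 CPM and VCAN of monocytes at least 119.8 CPM. No marker of skin keratinocytes, simple epithelium, fibroblasts, smooth or skeletal muscle, adipocytes, erythroid cells or platelets was matched, so that their levels were not examined here. Of the endothelium only VWF (von Willebrand factor) was matched, with at least 40.6 CPM in every library. None of the 16 is a gene of the set. In subject B's coccygeal library 5 of the 16 were at the highest level of the 5 coccygeal libraries: VWF (128 CPM), CD2, CD79A, CCR3 and KIT. At the lowest were 6: FCGR3A, CD14 (31.8 CPM), VCAN, CD8A, GATA2 and AURKB. Markers of 1 list thus went both ways, as CD2 and CD8A of T cells did. In library 3 of the 3 to 8 h group the 3 monocyte markers CD14 (112 CPM), CD68 (125 CPM) and VCAN (513 CPM) were at the highest level of the 15 libraries. At the lowest were 4 of the 16: CD2, CD4, MKI67 and AURKB. VWF stood at 58.9 CPM there, below the median of 76.6 CPM. CD14, VCAN and CD2 thus took opposite ends in these libraries, whereas AURKB was at the lowest in both. Their part in the levels of the set was not tested.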

How the data were processed

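RNA of PWBCs was sequenced as stranded mRNA libraries in 30 samples. The authors mapped the trimmed pairs to the ARS-UCD1.2 genome, discarded duplicates and assigned the fragments to Ensembl genes, and they deposited these raw counts for 27607 genes without normalization. The submitters' processing notes list cutadapt 2.8, HISAT2 2.2.0, SAMtools 1.10 and featureCounts of Subread 2.0.1. The strand was ignored in counting, so that genes overlapping on opposite strands cannot be told apart. Near-identical copies were not examined. Vein, storage group and subject of the columns followed the study's supplementary code, which gave no single time or heifer for the columns of 3 to 8 h.

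Counts were scaled by library totals (12412619 to 19492274). Members and lists were chosen with earlier results of these data known. The rule's own contrast was given no test. For 24 h against 3 to 8 h, edgeR 4.0.16 (quasi-likelihood, robust, older fitting method) and DESeq2 1.42.0 (Wald test, outlier replacement as by default) were run in R 4.3.3 on the 25 jugular libraries, with storage group as the factor, library size as the only scaling and genes above 1 CPM in 5 or more of the 30 libraries. On simulated counts of 14018 genes with 200 changed, 88% of changes of 1 log2 unit and 95.7% of 2 units were called, and 3 unchanged genes were. The changed genes were drawn at random from the 14018. These shares do not carry over to the leading genes of the set, whose fold changes had an SE of up to 2.71 log2 units. The genes described in full were the 2 listed members and the 10 others with the largest pooled coccygeal count. Except for the listed pair they are given by rank, because 0 of the 60 are among the 1738 genes named in the supplementary tables and 0 identifiers of a gene list of assembly ARS-UCD2.0 matched. Sequences of the genes were not used here. Alternatives were other scaling, tools, filters, thresholds, fits and references and single libraries left out. Those added after seeing the data were the reference or fit without library 3, median CPM in place of pooled counts, and the exact permutation tests.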

Additional observations from a re-analysis of the deposited data

Results flagged for a closer look

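Libraries far from the rest of their group of 5 were found by the gap to the nearest library divided by the range of the group, against Dixon's 95% limit, which chance passes in about 1 in 20 groups. Subject B's coccygeal library stood apart by 0.946 of the range for the summed CPM of the 60 genes, by 0.960 for ENSBTAG00000013103 and by 0.943 for ENSBTAG00000021466. For the genes of rank 3 to 7 the same library stood apart by 0.949, 0.945, 0.936, 0.899 and 0.961. Over the whole set 59 of 60 genes had such a library among the coccygeal ones, against 8.37% of the 15814 genes with 20 or more coccygeal counts. Among the jugular libraries of 1 h 18 of the 60 had one, against 7.51%, and among those of 24 h 19, against 6.72%. Genes of the set passed the limit more often than all genes in these jugular groups too, but low counts alone can give this. The gene of rank 12 had 1 count in 1 library of each of these groups and none in their other libraries. The gap is then the whole range, and the share of about 1 in 20 does not hold. The genes compared were not matched for level, so that no conclusion is drawn from the shares in jugular blood. The rule pooled the coccygeal libraries and the jugular libraries of 1 h, for which 59 and 18 genes are given above. Among the jugular libraries of 1 h, that of subject E stood apart for ENSBTAG00000021466 (0.884 of the range, 28 counts). At 24 h the library of subject E stood apart for ENSBTAG00000021466 (0.771, 7 counts), ENSBTAG00000013103 (0.835, 5 counts) and the gene of rank 6 (0.945, 3 counts). These last values rest on few counts.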

How the results depend on the processing

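The number of genes under the rule changed with its limits and with the libraries pooled. Against the 60 genes reported, 36 passed with a minimum of 50 counts, and 32 passed with mean CPM in place of pooled counts, all of them among the 60. With jugular 3 to 8 h as the reference 19 passed, with all jugular libraries 32, and under the mirrored rule 0. Leaving out 1 heifer gave 12 to 68 genes, with 12 without subject B. With median CPM, added after seeing the data, 5 passed. For 24 h against 3 to 8 h, 36 genes were called over all genes, 63 by DESeq2 alone, 83 without a limit on the fold change and 19 with a limit of 1 log2 unit. Leaving out 1 library of 24 h gave 21 to 40 calls, with 21 without that of subject A. Without library 3 of 3 to 8 h there were 43, and no other jugular library was left out. None of the 124 fold changes of the 10 tested genes under the 14 alternatives reversed, and 2, both by DESeq2 alone, passed the threshold. The alternatives reuse the same genes and nearly the same libraries, so that the unchanged sign is not read as support for a direction. The cause of the shifts in the numbers above was not tested. No paired analysis was possible because the only comparison tested includes the libraries of 3 to 8 h, which were not joined to a heifer. The veins were compared within heifers as a description. Depth limits the lower 34 genes of the set, whose pooled coccygeal counts were under 100.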
